A study of Mus musculus with 12 samples.

Results

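CDK inhibitors are small proteins that bind cyclin-dependent kinases, the enzymes that drive the cell cycle, and block their activity. The 6 inhibitor genes described here are *Cdkn1a*, *Cdkn1b*, *Cdkn2a*, *Cdkn2b*, *Cdkn2c* and *Cdkn2d*, taken by gene symbol from a table of 24346 mouse genes. Of these 6, 4 reached 0.5 FPKM in 3 or more of the 12 libraries and were tested, while *Cdkn2a* and *Cdkn2b* were listed at 0 in all 12. FPKM is the number of sequenced fragments corrected for transcript length and for how many fragments of a library mapped, so levels of different genes can be set side by side. The members were found by name and no measured value entered their choice, although earlier results of these data were known when the group was proposed.

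RNA was sequenced from NIH-3T3 cells (embryonic fibroblasts, NIH/Swiss strain) and MLg cells (fibroblasts of newborn lung, ddY strain). The 4 groups of 3 libraries were NIH-3T3 with SHHN, NIH-3T3 control, MLg with SHHN and MLg control. SHHN, the recombinant amino-terminal signalling fragment of Sonic hedgehog, was given at 1 µg/ml for 48 h, and controls received vehicle for the same time. All 4 groups were treated at 85% confluence in DMEM with 0.5% FBS, so each comparison starts from dense cultures in low serum. Each comparison of SHHN with control rests on 1 established line, and the other comparisons set the lines against each other. Between the lines strain, tissue of origin, age and maintenance serum cannot be told apart. The labels do not say whether the 3 libraries of a group came from separate cultures, so p-values measure only the spread between these libraries, which may be technical.

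The inhibitors fall into 2 families. Cip/Kip proteins, here p21 (*Cdkn1a*) and p27 (*Cdkn1b*), bind cyclin-kinase complexes, inhibit those built on Cdk2, and can help assemble cyclin D with its kinases. INK4 proteins, here p16Ink4a (*Cdkn2a*), p15 (*Cdkn2b*), p18 (*Cdkn2c*) and p19Ink4d (*Cdkn2d*), bind Cdk4 and Cdk6 and keep cyclin D away. *Cdkn2a* also encodes Arf from a separate first exon, which stabilises p53 rather than binding a kinase, and a value per gene does not separate these products. p27 is known to build up in fibroblasts that stop dividing at high density or without serum, and to be cleared largely by protein breakdown when they re-enter the cycle. p21 is known as a transcriptional target of p53 and is also induced by growth factors as quiescent cells re-enter the cycle. Sonic hedgehog is known as a mitogen for several progenitor cells, acting through the receptor Ptch1 and the Gli factors.

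In the GENCODE M21 annotation (build GRCm38, the assembly also called mm10), to which all 6 symbols matched, *Cdkn1a* lies at chr17:29090976-29100727 on the plus strand and *Cdkn1b* at chr6:134920401-134925513 on the plus strand. The other members all lie on minus strands, *Cdkn2a* at chr4:89274471-89294653, *Cdkn2b* at chr4:89306299-89311039, *Cdkn2c* at chr4:109660876-109667189 and *Cdkn2d* at chr9:21288410-21291407. All are protein-coding. *Cdkn2a* and *Cdkn2b* are neighbours with 11645 bases between them. A minus-strand record, AC167363.2, overlaps exons of *Cdkn1a*. Whether counting used strand was not given in the sources used here, so reads from the 2 strands there cannot be told apart.

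Promoter sequence is shown for the Cip/Kip members because they moved in opposite directions in MLg cells. The sequences are RefSeq promoters of GRCm38.p6, cut to the bases outside annotated exons and written on the gene's own strand, upstream to downstream. Capitals in the promoter of the first *Cdkn1a* start, chr17:29090729-29090975, mark a p53 response element (a pair of half-sites without spacer, with 1 mismatch). In the promoter of the second *Cdkn1a* start, chr17:29093519-29093768, capitals mark the Sp1 letters GGGCGGGG. The *Cdkn1b* promoter, chr6:134920151-134920400, holds none of the letters searched.
Cdkn1a first start: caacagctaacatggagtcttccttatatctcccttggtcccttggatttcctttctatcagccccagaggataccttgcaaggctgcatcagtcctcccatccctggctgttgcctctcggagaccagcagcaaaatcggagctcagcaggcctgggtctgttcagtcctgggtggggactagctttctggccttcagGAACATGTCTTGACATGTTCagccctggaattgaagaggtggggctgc
Cdkn1a second start: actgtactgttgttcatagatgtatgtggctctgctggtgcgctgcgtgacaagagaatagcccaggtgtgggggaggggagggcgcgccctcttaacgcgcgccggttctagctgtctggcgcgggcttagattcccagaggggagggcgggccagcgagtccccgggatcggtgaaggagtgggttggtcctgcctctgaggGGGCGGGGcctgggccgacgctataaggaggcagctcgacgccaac
Cdkn1b: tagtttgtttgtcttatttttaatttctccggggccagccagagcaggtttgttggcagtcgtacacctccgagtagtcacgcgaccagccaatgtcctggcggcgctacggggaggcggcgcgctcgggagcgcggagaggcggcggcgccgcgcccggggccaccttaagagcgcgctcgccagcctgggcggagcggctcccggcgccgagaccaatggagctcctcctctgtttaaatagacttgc

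The 6 members have 9 promoter windows of 300 bases (250 before and 50 after a start), which were searched on both strands. The p53 element, searched after these sequences had been seen, began 51 bases before the first *Cdkn1a* start and was found in 18 of 32817 windows of all genes (0.0548%). Sp1 letters occurred in 4 of the 9 windows, those of the second *Cdkn1a* start, *Cdkn2b*, *Cdkn2d* and 1 of *Cdkn2c*, against 17.6% of all windows. E2F letters (TTTCGCGC, TTTGGCGC, TTTCCCGC or TTTGGCGG) occurred in 1 window, the upstream start of *Cdkn2a*, against 2.36% of all windows. The E-box letters CACGTG occurred in 1 window of *Cdkn2c*, against 7.15% of all. None of the 9 windows held the Gli letters GACCACCCA (0.253% of all windows) or the AP-1 letters TGACTCA (5.20%). No window held letters of more than 1 of these motifs, and a match describes the sequence only.

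Library sums of FPKM lay between 470218 and 659862, with 13401 to 14793 genes above 0, and the sequencing depth is unknown. Ligand activity showed in the direct targets of the pathway: *Gli1* averaged 147 FPKM in NIH-3T3 cells with SHHN against 0.131 in NIH-3T3 controls, and 120 in MLg cells with SHHN against 0.583 in MLg controls. The 11 fibroblast markers summed to 8699 to 10809 FPKM in NIH-3T3 with SHHN against 13503 to 14983 in NIH-3T3 controls, and 8367 to 9906 in MLg with SHHN against 9422 to 10601 in MLg controls. In NIH-3T3 with SHHN 7 of the 11 fell and 1 rose, and in MLg with SHHN 3 fell. Over all tested genes 14.8% fell and 16.6% rose in NIH-3T3, and 10.0% fell in MLg. *Thy1* was at most 0.106 FPKM in MLg libraries and at 0 in 1 of them, and the other 10 markers averaged at least 0.5 FPKM in each group. The 5 epithelial markers summed to at most 0.620 FPKM in any library, with *Epcam* and *Krt18* at 0 throughout. The 5 endothelial markers summed to 2.19 to 14.1 FPKM in NIH-3T3 with SHHN against 0.0507 to 0.135 in NIH-3T3 controls, and 4.77 to 5.49 in MLg with SHHN against 0.0556 to 0.124 in MLg controls. *Emcn* was at 0 in all 4 groups and *Cdh5* made up almost all of the sum in both SHHN groups. The part of these cells or genes in the results was not tested.

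**Figure D1:**
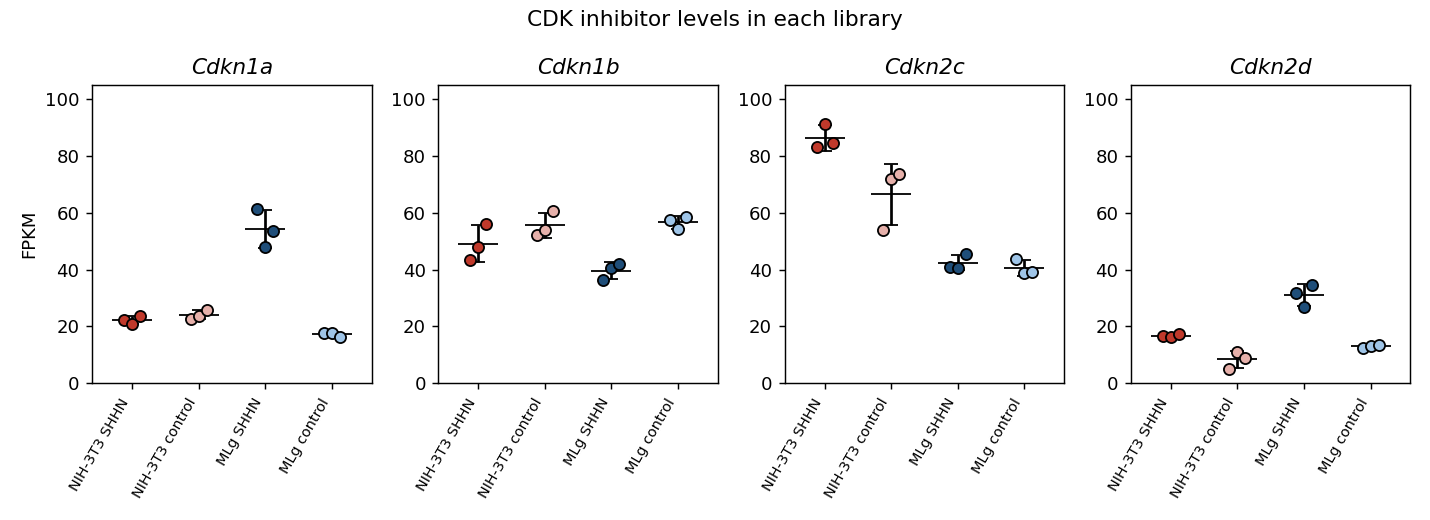
Each panel plots 1 CDK inhibitor, with FPKM on the vertical axis and the 4 groups along the horizontal axis; points are libraries, horizontal bars group means and vertical bars the SD of 3 libraries. *Cdkn1a* stands highest in the 3 MLg libraries with SHHN (48.1 to 61.5 FPKM). *Cdkn2a* and *Cdkn2b*, at 0 in every library, are not drawn.

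*Cdkn1a*, which encodes p21, had 22.1, 21.0 and 23.8 FPKM in NIH-3T3 cells with SHHN, against 22.8, 23.8 and 25.8 FPKM in NIH-3T3 controls. In MLg cells it had 61.5, 48.1 and 53.7 FPKM with SHHN, against 17.6, 17.7 and 16.4 FPKM in controls. All 3 MLg libraries with SHHN lay above the other 9 libraries, while the NIH-3T3 groups overlapped. In MLg cells the means were 54.4 ± 6.74 FPKM with SHHN and 17.3 ± 0.762 FPKM without (SD, n = 3 each), a ratio of 3.15. The log2 fold change was 1.62 ± 0.11 (SE), with an adjusted p of 2.57e-07 by limma on log2(FPKM + 0.5), a scale that understates changes of low genes. In NIH-3T3 cells it was −0.11 ± 0.11 (95% interval −0.35 to 0.13, adjusted p = 0.486), and the test was not passed. The difference between the lines was itself tested: the effect of SHHN was lower in NIH-3T3 than in MLg by a log2 difference of −1.73 ± 0.16 (adjusted p = 1.39e-05). No alternative fit, single libraries left out included, gave an adjusted p above 3.37e-04.

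*Cdkn1b*, which encodes p27, moved the other way in MLg cells. It had 36.5, 40.5 and 42.0 FPKM in MLg cells with SHHN, against 57.5, 54.2 and 58.5 FPKM in MLg controls. The MLg groups did not overlap, and the 3 libraries with SHHN were the lowest of the 12. The log2 fold change was −0.51 ± 0.11 (adjusted p = 0.00467), a ratio of means of 0.700. In NIH-3T3 cells *Cdkn1b* had 43.5, 48.0 and 56.1 FPKM with SHHN, against 52.1, 53.8 and 60.7 FPKM in controls. These groups overlapped, and the log2 fold change of −0.18 ± 0.11 (95% interval −0.42 to 0.07) did not pass the test (adjusted p = 0.263). A difference between the lines was not shown either: it was 0.33 ± 0.16 (95% interval −0.01 to 0.68, adjusted p = 0.197). p27 is regulated largely through protein stability, which these RNA values do not measure.

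*Cdkn2c*, which encodes the Cdk4 and Cdk6 inhibitor p18 and is known as an E2F target, had 83.1, 91.4 and 84.4 FPKM in NIH-3T3 cells with SHHN, against 54.1, 71.8 and 73.7 FPKM in NIH-3T3 controls. Replicate 1 of the controls was the lowest, and the groups did not overlap. *Cdkn2c* rose by a log2 fold change of 0.38 ± 0.12 (adjusted p = 0.0294), a ratio of means of 1.30. This call depended on single libraries: without control replicate 1 the log2 fold change was 0.24 (adjusted p = 0.113), without SHHN replicate 2 the adjusted p was 0.104, without SHHN replicate 3 it was 0.0523, and with only the 6 NIH-3T3 libraries in the fit it was 0.0988. In MLg cells *Cdkn2c* had 40.9, 40.7 and 45.5 FPKM with SHHN, against 43.9, 38.8 and 39.0 FPKM in controls. The MLg groups overlapped, with a log2 fold change of 0.06 ± 0.12 (95% interval −0.20 to 0.33, adjusted p = 0.778). The difference between the lines was 0.32 ± 0.17 and did not pass the test (95% interval −0.05 to 0.70, adjusted p = 0.251).

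*Cdkn2d*, which encodes the INK4 protein p19Ink4d, rose in both lines. It had 16.7, 16.2 and 17.5 FPKM in NIH-3T3 cells with SHHN, against 5.18, 11.1 and 9.0 FPKM in NIH-3T3 controls. In MLg cells it had 31.7, 26.8 and 34.6 FPKM with SHHN, against 12.5, 13.0 and 13.4 FPKM in controls. Neither pair of groups overlapped, and NIH-3T3 control replicate 1 was the lowest of the 12 libraries. The log2 fold change was 1.01 ± 0.20 in NIH-3T3 (adjusted p = 0.00160) and 1.22 ± 0.20 in MLg (adjusted p = 4.82e-04), with ratios of means of 1.99 and 2.39. Without NIH-3T3 control replicate 1 the NIH-3T3 value was 0.72 and still passed the test (adjusted p = 0.00150). The effects in the lines were not shown to differ (−0.21 ± 0.28, 95% interval −0.82 to 0.41, adjusted p = 0.676).

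*Cdkn2a* and *Cdkn2b*, the p16Ink4a/Arf and p15 genes, were listed at 0 FPKM in each of the 12 libraries, with and without SHHN. No fold change or test was possible, and 7066 genes of the table (29.0%) were likewise at 0 in all libraries. A value of 0 in a table without counts can be a failed estimate. None of 18 housekeeping genes checked was at 0 in any library (lowest value 3.26 FPKM). Whether the estimate failed at *Cdkn2a* and *Cdkn2b* was not tested. NIH-3T3 is known from work outside these data to lack the Ink4a/Arf locus. The labels say nothing of the locus in MLg, and no DNA was measured.

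The neighbours of this locus were looked up after its zeros had been seen. The window of 1 Mb on either side of *Cdkn2a* and *Cdkn2b* held 40 genes of the table, these 2 included. Of the 40, 27 were at 0 in all 12 libraries and 13 were above 0 in some. Among all genes the share at 0 in all libraries was 29.0%. Many of those at 0 in the window were interferon genes, such as *Ifnb1*, *Ifna1* and *Ifna2*, so the window is not a typical set of genes. Why its genes were at 0 was not tested. *Mtap*, a methionine salvage enzyme 93.4 kb away and the nearest neighbour above 1 FPKM, averaged 70.8 ± 11.8 FPKM in NIH-3T3 with SHHN and 104 ± 11.7 FPKM in NIH-3T3 controls (SD, n = 3 each). In MLg cells *Mtap* averaged 23.4 ± 1.17 FPKM with SHHN and 22 ± 3.29 FPKM in controls. *Mtap* was above 0 in all 12 libraries. *Klhl9*, a ubiquitin ligase adaptor 552 kb away on the same side, averaged 68.5, 81.5, 31.6 and 33.0 FPKM in NIH-3T3 with SHHN, NIH-3T3 control, MLg with SHHN and MLg control. On the other side *Dmrta1*, 368 kb away, was at 0 in all 12 libraries.

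**Figure D2:**
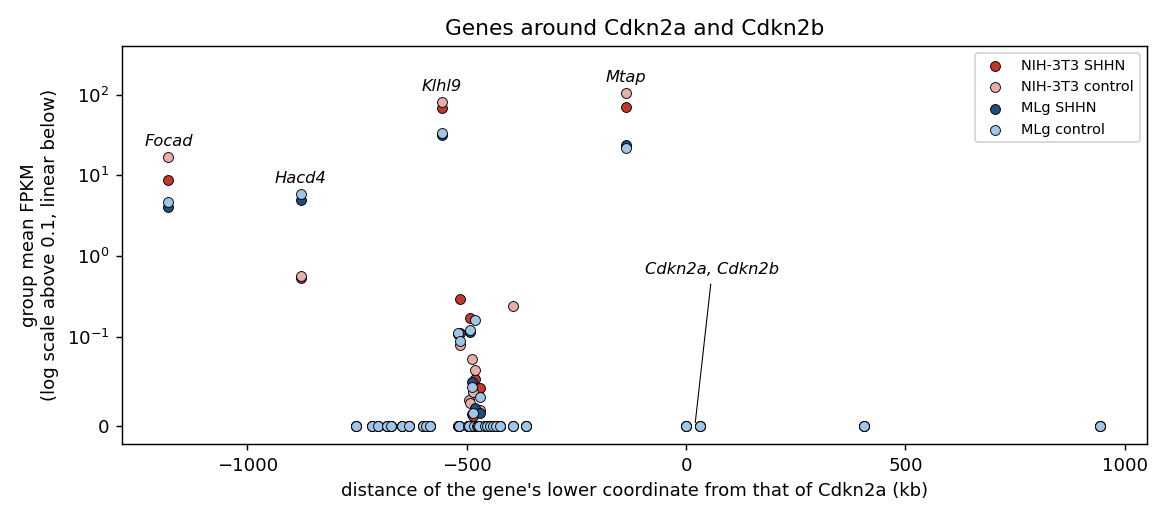
Genes of the table within 1 Mb of *Cdkn2a* and *Cdkn2b* are placed by the distance of their lower coordinate from that of *Cdkn2a* (horizontal axis, kb), with the group mean FPKM on the vertical axis (log scale above 0.1, linear below). *Cdkn2a* and *Cdkn2b* lie at 0 in all groups, whereas *Mtap* and *Klhl9* lie between 22 and 104 FPKM.

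Counted over the members, 2 of the 4 tested (of 6 in all) rose with SHHN in NIH-3T3, *Cdkn2c* and *Cdkn2d*. In that comparison 31.4% of all tested genes passed the test, 16.6% as higher and 14.8% as lower. With SHHN in MLg, 3 of the 4 passed, *Cdkn1a* and *Cdkn2d* as higher and *Cdkn1b* as lower. There 22.8% of all tested genes passed, 12.8% as higher and 10.0% as lower. Each of these 5 calls also came from groups that did not overlap, which held for 40.4% of all tested genes in NIH-3T3 and 41.4% in MLg. Only *Cdkn1a* of the 4 passed the test of the difference between lines, as lower in NIH-3T3. That test was passed by 13.4% of all tested genes, 7.48% as higher and 5.95% as lower. With so few members these counts describe single genes, and nothing is read from them about the group. The median log2 fold change of all tested genes was −0.01 in NIH-3T3 and 0.00 in MLg.

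**Figure D3:**
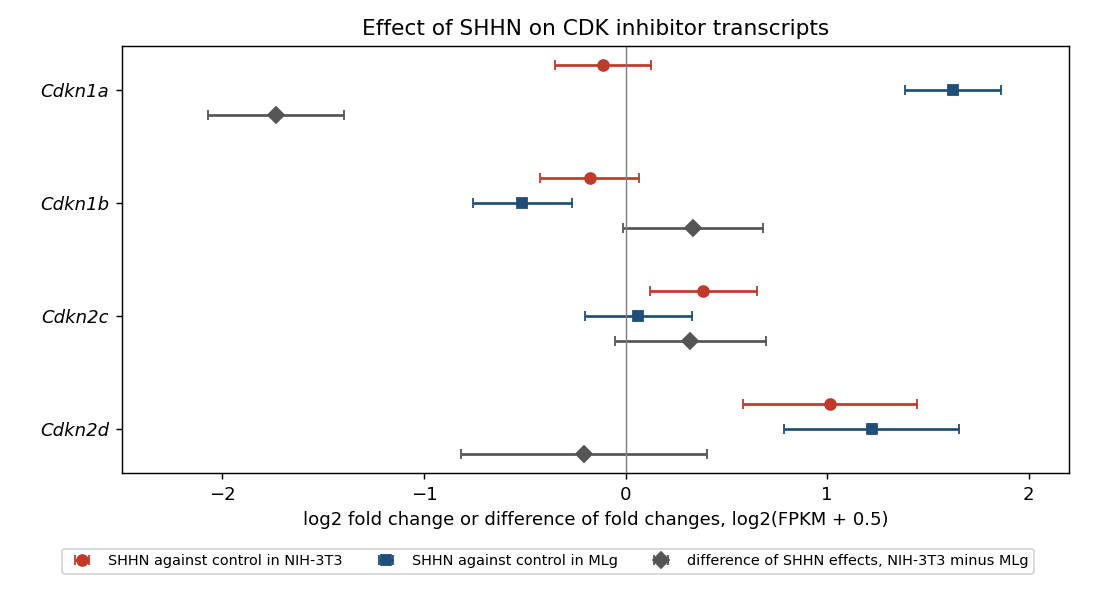
Log2 fold changes of the 4 tested inhibitors with SHHN in each line, and the difference between the lines (horizontal axis, log2(FPKM + 0.5)), with 95% intervals from the fit. The intervals of *Cdkn1a* lie apart between the lines (−0.35 to 0.13 in NIH-3T3, above 1.38 in MLg), and those of *Cdkn2d* lie above 0 in both.

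The order of the inhibitors by mean level changed in MLg cells and not in NIH-3T3 cells. In NIH-3T3 cells, with and without SHHN, the order of mean FPKM was *Cdkn2c*, *Cdkn1b*, *Cdkn1a*, *Cdkn2d*. In MLg cells with SHHN it was *Cdkn1a*, *Cdkn2c*, *Cdkn1b*, *Cdkn2d*, whereas in MLg controls it was *Cdkn1b*, *Cdkn2c*, *Cdkn1a*, *Cdkn2d*. *Cdkn2c* and *Cdkn1b* overlapped in MLg with SHHN (40.7 to 45.5 and 36.5 to 42.0 FPKM). They also overlapped in NIH-3T3 controls (54.1 to 73.7 and 52.1 to 60.7 FPKM). The order of genes within a group was not tested. *Cdkn1a* made up 32.5 ± 3.11% of the members' summed FPKM in MLg cells with SHHN and 13.5 ± 0.747% in MLg controls. The share of *Cdkn1b* was 23.8 ± 2.29% in MLg cells with SHHN and 44.5 ± 1.26% in MLg controls. In NIH-3T3 cells the share of *Cdkn1a* was 12.8 ± 0.794% with SHHN and 15.7 ± 1.15% in controls, and that of *Cdkn2c* was 49.5 ± 2.75% with SHHN and 42.9 ± 2.27% in controls (SD, n = 3 in each group).

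Summed over the members, FPKM was 165, 177 and 182 in NIH-3T3 with SHHN, against 134, 161 and 169 in NIH-3T3 controls. It was 171, 156 and 176 in MLg with SHHN, against 132, 124 and 127 in MLg controls. The sums overlapped in NIH-3T3 and did not overlap in MLg. Cip/Kip transcripts summed to 94.1 ± 4.88 FPKM in MLg with SHHN and 73.9 ± 1.78 FPKM in MLg controls, and INK4 transcripts to 73.4 ± 6.31 and 53.5 ± 2.52 FPKM in the same groups. In NIH-3T3 the Cip/Kip sum was 71.5 ± 7.46 FPKM with SHHN and 79.7 ± 6.05 FPKM in controls, and the INK4 sum 103 ± 4.03 and 75 ± 13.6 FPKM. These sums are descriptions of RNA and carry no test.

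**Figure D4:**
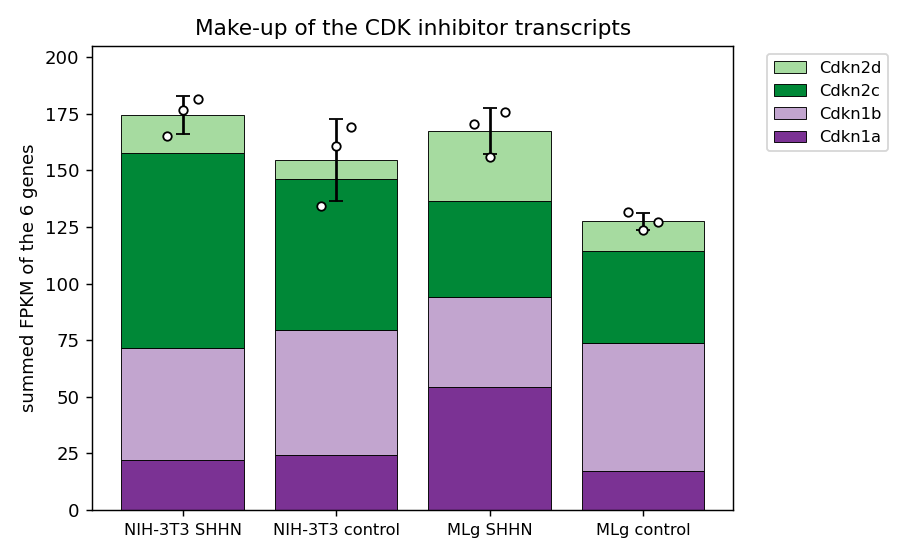
Stacked bars give the mean FPKM of each member (vertical axis) in the 4 groups, n = 3 libraries each; open circles are the members' sum in each library and error bars its SD. The *Cdkn1a* segment makes up 32.5% of the bar in MLg with SHHN and 13.5% in MLg control, while *Cdkn2c* is the tallest segment in both NIH-3T3 groups.

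The lines also differed without ligand. Of the 4 tested members, 3 passed the test between NIH-3T3 controls and MLg controls, as did 50.1% of all tested genes (24.4% higher and 25.7% lower in NIH-3T3). The groups of these 3 did not overlap, which held for 52.3% of all tested genes. *Cdkn1a* was higher in NIH-3T3 (24.1 ± 1.5 FPKM) than in MLg (17.3 ± 0.762 FPKM; log2 difference 0.47 ± 0.11, adjusted p = 0.00295). *Cdkn2c* was higher too, at 66.5 ± 10.8 FPKM in NIH-3T3 and 40.6 ± 2.90 FPKM in MLg (0.70 ± 0.12, adjusted p = 3.46e-04). *Cdkn2d* was lower, at 8.43 ± 3.0 FPKM in NIH-3T3 and 12.9 ± 0.449 FPKM in MLg (−0.65 ± 0.20, adjusted p = 0.0155; 0.0701 when the fit held only these 6 libraries). Without NIH-3T3 control replicate 1 the value was −0.36 (adjusted p = 0.0463). *Cdkn1b* was at 55.5 ± 4.56 FPKM in NIH-3T3 and 56.7 ± 2.25 FPKM in MLg, with a log2 difference of −0.03 ± 0.11 (adjusted p = 0.838).

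Under SHHN all 4 tested members passed the test between the lines, as did 46.8% of all tested genes (22.1% higher and 24.8% lower in NIH-3T3). Their groups did not overlap, which held for 61.4% of all tested genes. *Cdkn1a* was lower in NIH-3T3 than in MLg (log2 difference −1.26 ± 0.11, adjusted p = 5.75e-07), so its order between the lines was the opposite of that without ligand. *Cdkn2c* was higher in NIH-3T3 (1.02 ± 0.12, adjusted p = 1.37e-05) and *Cdkn2d* lower (−0.86 ± 0.20, adjusted p = 0.00317), the directions they had without ligand. *Cdkn1b* was higher in NIH-3T3 by 0.30 ± 0.11 (adjusted p = 0.0438), a call that held under 13 of 21 alternatives. It was lost without NIH-3T3 SHHN replicate 2 or 3, without any 1 of the 3 MLg SHHN libraries, and without MLg control replicate 1 or 2, with adjusted p between 0.0538 and 0.177, and with only these 6 libraries in the fit (0.0504).

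Across the 4 groups, *Cdkn1a* ran from MLg with SHHN, through NIH-3T3 control and NIH-3T3 with SHHN, which overlapped, to MLg control. *Cdkn1b* was lowest in MLg with SHHN, and the other groups overlapped with their neighbours. *Cdkn2c* ran from NIH-3T3 with SHHN through NIH-3T3 control to the MLg groups, which overlapped. *Cdkn2d* ran from MLg with SHHN through NIH-3T3 with SHHN and MLg control to NIH-3T3 control, with no overlap between neighbours.

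*Cdkn1c*, the remaining Cip/Kip gene, which encodes p57 and is known as an imprinted gene, was read alongside. It had 5.49, 6.69 and 4.94 FPKM in MLg cells with SHHN, against 10.4, 12.7 and 8.43 FPKM in MLg controls. The groups did not overlap, and *Cdkn1c* fell by a log2 fold change of −0.82 ± 0.17 (adjusted p = 0.00325; 0.0587 with a pseudocount of 0.1). In NIH-3T3 cells it stayed at or below 0.152 FPKM in all 6 libraries, so it passed the filter only through MLg. With *Cdkn1b*, this made 2 Cip/Kip transcripts that were lower with SHHN in MLg cells, where *Cdkn1a* was higher.

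The genes whose profiles over the 12 libraries lay nearest to each member were listed by root-mean-square (RMS) difference of centred log2 values. For *Cdkn2d* these were *Nxt1* (RMS 0.151), *Gins1* (0.171) and *Grasp* (0.202), where the median over tested genes was 0.786. *Nxt1*, an RNA export factor, averaged 21.6 FPKM in NIH-3T3 with SHHN and 11.8 FPKM in NIH-3T3 controls, and 37.9 FPKM in MLg with SHHN and 16.4 FPKM in MLg controls. *Gins1* encodes a subunit of the replication helicase. For *Cdkn2c* the nearest were *Bzw2* (RMS 0.118), *Tmem234* (0.121) and *Naa60* (0.131), against a median of 0.574. For *Cdkn1a* they were *Pdzd2* (RMS 0.231), *Nwd1* (0.245) and *Cpne5* (0.246), against a median of 0.710. These last 3 were low genes, with means of 1.26, 0.749 and 0.580 FPKM in MLg with SHHN and at most 0.138 FPKM in the other groups. They reached 0.5 FPKM only in MLg with SHHN, so they entered the tests through that group alone. Adding 0.5 FPKM understates the change of such low genes, so their nearness to *Cdkn1a* rests partly on that scale. The 4 group means of *Cdkn1b* spanned less than 1 log2 unit, so no neighbours were listed for it.

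Among the G1 cyclins and kinases, which the inhibitors act on, 5 of 9 rose and 1 fell in NIH-3T3 cells with SHHN. The median log2 fold change of these 9 was 1.03, and 31.4% of all tested genes passed in NIH-3T3. *Cdk4* and *Cdk6*, the kinases that INK4 proteins bind, passed in neither line. *Cdk4* had log2 fold changes of −0.19 ± 0.13 in NIH-3T3 (adjusted p = 0.270) and 0.03 ± 0.13 in MLg (0.894), and *Cdk6* of 0.75 ± 0.31 (0.0870) and 0.16 ± 0.31 (0.778). *Ccna2*, the cyclin A of S phase, averaged 48.4 ± 7.75 FPKM with SHHN and 4.80 ± 2.0 FPKM in controls (log2 fold change 3.26 ± 0.24, adjusted p = 2.22e-07). *Ccnd1*, the cyclin D1 partner of Cdk4 and Cdk6, averaged 72.8 ± 16.7 FPKM with SHHN and 23.4 ± 2.64 FPKM in controls (1.59 ± 0.15). *Ccne1* and *Cdk2*, the kinase pair that p21 and p27 inhibit, rose by 1.55 ± 0.14 and 1.03 ± 0.12. *Ccnd2* was the gene that fell (−0.70 ± 0.16, adjusted p = 0.00461; not called with only the 6 NIH-3T3 libraries in the fit). In MLg cells with SHHN, 5 of 9 rose (median of the 9, 0.70), against 12.8% of all tested genes. *Ccnd1* did not pass there (0.26 ± 0.15, adjusted p = 0.262). *Ccne1* rose by 2.18 ± 0.14, *Ccne2* by 2.83 ± 0.30, *Cdk2* by 1.39 ± 0.12 and *Ccna2* by 2.11 ± 0.24 in MLg.

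Of 11 pocket proteins and E2F factors, which the kinases act on and which control S phase genes, 5 rose in NIH-3T3 with SHHN (median 0.60) and 6 in MLg with SHHN (median 0.70), against 16.6% and 12.8% of all tested genes that rose. *E2f8*, a repressor of the family, averaged 7.69 ± 0.533 FPKM with SHHN and 0.852 ± 0.251 FPKM in controls in NIH-3T3, and 10.6 ± 1.47 FPKM with SHHN and 2.22 ± 0.146 FPKM in controls in MLg (log2 fold changes 2.61 ± 0.15 and 2.02 ± 0.15). *E2f7*, its close relative, rose in both lines, by 2.25 ± 0.18 in NIH-3T3 and by 2.08 ± 0.18 in MLg. *E2f2*, an activator, rose by 2.0 ± 0.15 in NIH-3T3 and by 1.17 ± 0.15 in MLg; from its low levels these became 3.49 and 1.83 with a pseudocount of 0.1. The activator *E2f1* rose by 1.47 ± 0.15 in NIH-3T3 and by 1.10 ± 0.15 in MLg, and the pocket protein gene *Rbl1* rose by 1.18 ± 0.16 in NIH-3T3 and by 1.67 ± 0.16 in MLg.

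Of 11 genes for the breakdown of Cip/Kip proteins, 3 rose and 1 fell in NIH-3T3 with SHHN (median 0.00), and 4 rose in MLg with SHHN (median 0.08). Over all tested genes 31.4% passed in NIH-3T3, so the count there does not set the list apart. In MLg 22.8% of all tested genes passed, 12.8% as higher, and the list was not tested as a set. *Skp2*, the F-box protein that marks p27 for destruction, averaged 14.6 ± 2.94 FPKM with SHHN and 5.20 ± 0.778 FPKM in controls in NIH-3T3 (log2 fold change 1.40 ± 0.14, adjusted p = 5.72e-06). In MLg it averaged 14.5 ± 0.405 FPKM with SHHN and 6.48 ± 0.0917 FPKM in controls (1.10 ± 0.14, adjusted p = 6.79e-05). *Dtl*, the adaptor that marks p21 for destruction during S phase, had log2 fold changes of 2.31 ± 0.19 in NIH-3T3 and 2.10 ± 0.19 in MLg. *Ubac1*, a subunit of a p27 ligase, was near the threshold in both lines (adjusted p = 0.0493 in NIH-3T3 and 0.0390 in MLg; 0.0630 and 0.0550 with replicate number as a block), as was *Cks1b*, the Skp2 cofactor, in MLg (0.0487). *Ddb1*, the Dtl partner that fell in NIH-3T3 (−0.36 ± 0.10), did not pass with quantile normalization (adjusted p = 0.468). The MLg count was 2 with median-ratio scaling and without NIH-3T3 SHHN replicate 2, MLg SHHN replicate 2 or 3, or MLg control replicate 1 or 3. In NIH-3T3, 2 genes fell with the block and without SHHN replicate 3 or control replicate 1. Smaller moves of these counts are not listed. For example, *Cks1b* in MLg also did not pass with a pseudocount of 0.1 (adjusted p = 0.0514) or without the filter (0.0867). *Ubac1* in NIH-3T3 also did not pass with only the 6 NIH-3T3 libraries in the fit (0.116) or with quantile normalization (0.0800).

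Of 22 regulators of the Ink4 locus (repressors, chromatin regulators and some activators), 4 rose and 2 fell in NIH-3T3 with SHHN (median 0.04), and 5 rose and 4 fell in MLg with SHHN (median 0.06). Over all tested genes 31.4% passed in NIH-3T3 and 22.8% in MLg. *Ezh2*, the Polycomb methyltransferase known to silence the locus, averaged 26.3 ± 2.0 FPKM with SHHN and 9.28 ± 1.25 FPKM in controls in NIH-3T3, and 32.1 ± 4.08 FPKM with SHHN and 13.3 ± 2.85 FPKM in controls in MLg (log2 fold changes 1.46 ± 0.16 and 1.26 ± 0.16). *Tbx2*, a T-box repressor of the locus and of *Cdkn1a*, rose by 1.21 ± 0.17 in NIH-3T3 and by 1.41 ± 0.17 in MLg. Its relative *Tbx3* fell by 1.07 on the log2 scale in MLg (SE 0.13). *Suz12*, the partner of Ezh2, rose by 0.84 ± 0.18 in MLg. *Ets1* and *Ets2* encode activators of p16Ink4a, and in NIH-3T3 *Ets1* rose by 0.86 ± 0.14 and *Ets2* had a log2 fold change of −1.40 ± 0.14. The other gene that fell in NIH-3T3 was *Dmtf1* (−0.66), an activator of Arf, so both genes that fell there and 1 of the 4 that rose are activators. The MLg counts moved: 3 rose with quantile normalization, with median-ratio scaling and without MLg SHHN replicate 1, 2 or 3 or MLg control replicate 3, and 1 or 2 fell without MLg SHHN replicate 1 or 3 or MLg control replicate 1 or 2.

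Of 15 transcriptional regulators of Cip/Kip genes and *Cdkn2b*, 3 rose and 2 fell in NIH-3T3 with SHHN (median 0.01), and 2 fell in MLg with SHHN (median 0.03). The share over all tested genes was 31.4% in NIH-3T3 and 22.8% in MLg, so these counts do not set the list apart. In MLg the genes that fell were *Foxo3* (−1.07 ± 0.24, adjusted p = 0.00489) and *Foxo4* (−0.48 ± 0.11, adjusted p = 0.00556), forkhead factors known to activate *Cdkn1b*. *Foxo3* averaged 16.9 ± 4.04 FPKM in MLg with SHHN and 35.8 ± 5.57 FPKM in MLg controls. In NIH-3T3 their relative *Foxo1* rose by 0.89 ± 0.16, and in MLg it did not pass (−0.07 ± 0.16, adjusted p = 0.796). The part of these factors in the level of *Cdkn1b* was not tested. *Mycn*, a growth-promoting factor of the Myc family, averaged 15.4 ± 1.12 FPKM in NIH-3T3 with SHHN and 1.79 ± 0.200 FPKM in NIH-3T3 controls (2.80 ± 0.13, adjusted p = 7.00e-09). *Klf6*, a known activator of *Cdkn1a*, had a log2 fold change of −0.84 ± 0.18 in NIH-3T3 and of −0.41 ± 0.18 in MLg, where it did not pass (adjusted p = 0.118; 0.0453 with replicate number as a block). *Mdm4*, a p53 inhibitor, fell in NIH-3T3 (−0.67 ± 0.18), with an adjusted p of 0.0649 when only the 6 NIH-3T3 libraries were fitted and 0.0542 without NIH-3T3 control replicate 3. *Smad2* had a log2 fold change of 0.34 ± 0.14 in MLg and did not pass (adjusted p = 0.114; 0.0233 without MLg control replicate 3). In MLg 1 gene of the list also rose with replicate number as a block, with only the 6 MLg libraries in the fit, and without NIH-3T3 control replicate 2 or MLg control replicate 2 or 3.

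Of 16 other targets of p53, 8 rose and 1 fell in NIH-3T3 with SHHN (median 0.53), the line in which *Cdkn1a* did not pass the test. In MLg with SHHN, 7 rose and 1 fell (median 0.34). Over all tested genes 16.6% rose in NIH-3T3 and 12.8% in MLg. The part of p53 in the level of *Cdkn1a* was not tested. *Plk3*, a stress-responsive kinase, averaged 25.2 ± 5.36 FPKM with SHHN and 3.73 ± 0.598 FPKM in controls in NIH-3T3 (2.59 ± 0.15), and 23.1 ± 0.900 FPKM with SHHN and 3.0 ± 0.285 FPKM in controls in MLg (2.75 ± 0.15). *Eda2r*, a receptor of the TNF receptor family, rose by 2.66 ± 0.23 in NIH-3T3 and by 1.01 ± 0.23 in MLg. *Phlda3*, an inhibitor of Akt, and *Plk2* rose by 1.93 ± 0.20 and 1.66 ± 0.17 in NIH-3T3. In MLg *Phlda3* averaged 122 ± 26.6 FPKM with SHHN and 80.5 ± 16.8 FPKM in controls. *Plk2* averaged 36.7 ± 4.82 FPKM with SHHN and 48.0 ± 12.6 FPKM in controls in MLg. For both genes the MLg groups overlapped. *Aen*, a nuclease, and *Tigar*, a regulator of glycolysis, rose by 0.47 ± 0.10 and 0.63 ± 0.15 in MLg, *Tigar* with an adjusted p of 0.0524 without MLg SHHN replicate 1. The genes that fell were *Btg2* in NIH-3T3 (−0.87) and *Sesn1* in MLg (−0.49). The MLg count was 4 without MLg SHHN replicate 2 or 3 or MLg control replicate 1, and the number that fell there was 0 or 2 without MLg SHHN replicate 1 or any 1 of the 3 MLg controls.

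Against 16.6% of all tested genes in NIH-3T3 and 12.8% in MLg, all 15 proliferation genes rose in both lines. Their median log2 fold change was 2.75 in NIH-3T3 and 2.17 in MLg. Their summed FPKM was 723 to 795 in NIH-3T3 with SHHN against 154 to 188 in NIH-3T3 controls, and 1117 to 1280 in MLg with SHHN against 229 to 304 in MLg controls. *Aurkb*, the mitotic kinase Aurora B, rose by 3.12 ± 0.15 in NIH-3T3 and by 2.35 ± 0.15 in MLg. *Mcm6*, a replication helicase subunit, rose by 1.80 ± 0.10 in NIH-3T3 and by 1.98 ± 0.10 in MLg. Cell numbers and cycle phases were not measured, and in bulk RNA a change in the share of cells cannot be told apart from a change in RNA per cell. The part of proliferation in the levels of the inhibitors was not tested.

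**Figure D5:**
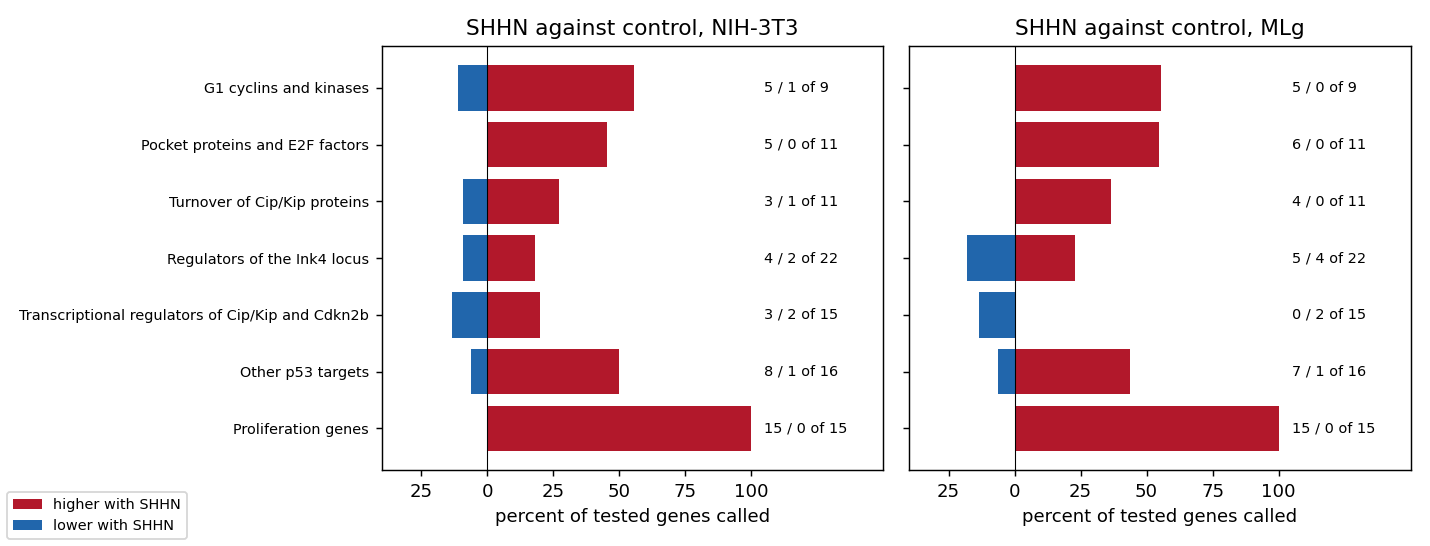
Bars give, for each list of related genes, the percent of tested genes that were higher (right) or lower (left) with SHHN, in NIH-3T3 and in MLg, with the counts beside them. All 15 proliferation genes were higher in both lines, and the transcriptional regulators numbered 3 higher and 2 lower of 15 in NIH-3T3.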

How the data were processed

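RNA of 12 libraries was sequenced, and the authors deposited their values as FPKM. The submitters' processing notes name bcl2fastq, TopHat2 2.0.12, Cufflinks 2.2.1 and build mm10; the annotation and any scaling between libraries are not given in the sources used here. FPKM holds no counts, and a search for whole-read steps recovered none, so depth is unknown and no counting interval is given.

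Values were tested as log2(FPKM + 0.5) by limma (version 3.58.1, under R 4.3.3). All 4 groups shared 1 fit with trended variances, over the 12379 genes that reached 0.5 FPKM in 3 or more libraries. The script was tested on simulated data first. Two-sided p-values were adjusted (Benjamini-Hochberg) over all these genes in each of 5 comparisons, with a threshold of 0.05. SHHN was compared with control in each line, these effects with each other, and NIH-3T3 with MLg without and with SHHN. Errors are SD over libraries for FPKM and SE of the fit for fold changes.

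Members and lists were chosen with earlier results of these data known. Named were all members, from each list at most the 4 genes with the smallest p in each SHHN comparison, and the 3 genes with the profile nearest to each member spanning at least 1 log2 unit. *Ccnd2*, *Cdk4*, *Cdk6*, *Dmtf1*, *Btg2* and *Sesn1*, the p53 element and the genes around *Cdkn2a* were chosen after their values or sequences were seen.

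The alternatives were 9 other settings of the whole fit and leaving out each of the 12 libraries. Deviations of same-numbered SHHN and control libraries from their group means correlated across genes at 0.132, 0.157 and 0.241 in MLg and at −0.001, −0.101 and 0.027 in NIH-3T3, so the numbers appear to pair the MLg libraries only. The reported fit holds no pairing, and replicate number as a block was an alternative. Genes are not independent replicates, so these correlations carry no p. A list of immune cell markers is not reported here.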

Additional observations from a re-analysis of the deposited data

Results flagged for a closer look

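The effect of SHHN on *Cdkn1a* differed between the lines by the test of the difference itself, with a log2 value of −1.73 for NIH-3T3 minus MLg (SE 0.16, limma adjusted p = 1.39e-05). *Cdkn1a* had 21.0 to 23.8 FPKM in NIH-3T3 with SHHN against 22.8 to 25.8 FPKM in NIH-3T3 controls, and 48.1 to 61.5 FPKM in MLg with SHHN against 16.4 to 17.7 FPKM in MLg controls. It was higher in 3 of 3 MLg libraries with SHHN than in any MLg control. The groups have 3 libraries each, so single libraries were not tested for standing apart.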

How the results depend on the processing

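The 4 tested members were checked in 5 comparisons for the same direction and side of the threshold. Both were kept in 134 of 144 values when a library of a compared group was left out. A library outside the compared groups cannot move a fold change but can move its adjusted p. With such a library left out, 94 of 96 values kept both. The exceptions were *Cdkn1b* between the lines under SHHN, without MLg control replicate 1 or 2. The other settings kept both in 173 of 176 values. The number of members called with SHHN in NIH-3T3, 2, was 1 when only 6 libraries entered the fit and ranged from 1 to 2 when single libraries were left out, since *Cdkn2c* did not pass without NIH-3T3 SHHN replicate 2 or 3 or NIH-3T3 control replicate 1. The 3 members called with SHHN in MLg stayed at 3 throughout. With the replicate block the members called were 2 in NIH-3T3, 3 in MLg, 1 for the difference, 3 between the lines without ligand and 4 under SHHN, as without it; of the named list genes it moved *Ubac1* in both lines and *Klf6* in MLg across the threshold and changed no other call of a named gene. For all genes, calls of the difference between lines numbered 1662, and 1093 to 2345 when single libraries were left out, with the lowest count without MLg SHHN replicate 3. Values near 0 turned sign without being called: *Cdkn1c* in NIH-3T3 (0.01) was −0.11 with quantile normalization and −0.092 to 0.074 with single libraries left out, *Cdkn2d* for the difference (−0.21) was −0.50 to 0.013, and *Cdkn1b* between the lines without ligand (−0.03) was −0.10 to 0.013. The causes were not tested. Without counts the depth behind low values, such as *Cdkn1c* in NIH-3T3 and the zeros of *Cdkn2a* and *Cdkn2b*, is unknown.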
